A study of Homo sapiens with 34 samples.

Results

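A set of 34 genes that mark endothelial cells was followed in RNA sequencing counts from H1 human ESCs driven toward cardiomyocytes (CMs). The members were taken by symbol, from the RefSeq transcript row with the largest total count of each gene, and all 34 were found among the 23185 symbols of the count table. H1 cells, an established embryonic stem cell line, carried a lentiviral short hairpin RNA (shRNA) against NKX2-5, ZEB2 or ZNF503, and WT denotes H1 cells that received a control virus (shRNA to GFP, or the vector alone). All lines went through the same protocol, in which the GSK3β inhibitor CHIR99021 started differentiation, the Wnt inhibitor IWP2 followed and insulin was given later, and RNA was taken at days 0, 2, 6 and 10. Each of the 15 groups used here held 2 libraries. At day 10 these were replicates 3 and 4 of WT and ZEB2 shRNA cells, because the columns of their other libraries were out of step with the transcript names. Day 10 was not analysed here for ZNF503 shRNA cells. Each shRNA line came from 1 vector, kept for its knockdown among several tried. The libraries of a group are described as biological replicates, with no word in the sources used here on whether they were separate differentiations, and p-values measure the spread between them.

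Endothelial cells line the blood and lymphatic vessels. In the embryo they arise from mesoderm that makes KDR, the main VEGF receptor, and ETS and SOX transcription factors such as ETV2, ERG, FLI1, SOX7 and SOX18 switch on their genes. Mesoderm with KDR also gives rise to blood and heart cells, so endothelial cells commonly appear beside CMs in cultures of this kind. The RNA was from whole cultures, in which fewer cells of a type and less RNA per cell cannot be told apart.

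Counts over 1 row per gene summed to between 9189588 and 90798116 per library, with the lowest total at day 10. Levels are given as CPM, counts scaled to a common library total with TMM factors, and 3 counts, taken as the limit of detection, corresponded to 0.0336 to 0.323 CPM (counting error only). The targeted genes differed in how far they were reduced in their own lines. In NKX2-5 shRNA cells NKX2-5 stood at 1.30% ± 0.243 (SD, n = 2) of WT at day 6 and 1.38% ± 1.26 at day 10, ZEB2 at 58.5% ± 1.83 and 49.5% ± 0.00656 in ZEB2 shRNA cells, and ZNF503 at 6.98% ± 0.297 at day 6 in ZNF503 shRNA cells. At day 2 ZEB2 stood at 66.4% ± 5.43 in its line and ZNF503 at 90.1% ± 35.0 in its own, where WT cells held 1.09 and 1.96 CPM, so that a reduction of ZNF503 was not detectable at that day. The knockdowns were not separate at day 6, since NKX2-5 shRNA cells held 8.26% ± 2.45 of the WT level of ZNF503 and ZNF503 shRNA cells held 3.69% ± 0.875 of that of NKX2-5. ZEB2 was lower in these lines than in its own, at 21.5% ± 0.00243 in NKX2-5 shRNA and 12.4% ± 1.32 in ZNF503 shRNA cells, and NKX2-5 stood at 53.5% ± 2.50 in ZEB2 shRNA cells. At day 10 NKX2-5 stood at 22.2% ± 9.18 of WT and ZNF503 at 322% ± 6.25 in ZEB2 shRNA cells. In NKX2-5 shRNA cells of that day ZEB2 stood at 93.9% ± 51.0 and ZNF503 at 109% ± 85.8.

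The set was mostly silent until day 2, present in all lines at day 6, and divided by line at day 10. Taking 1 CPM as a level at which a gene counted as on, 9 to 12 of the 34 genes were on in the libraries of days 0 and 2, and 22 to 26 at day 6. At day 10 the number was 15 and 12 in WT cells, 26 and 29 in NKX2-5 shRNA cells and 25 and 26 in ZEB2 shRNA cells. The lines thus overlapped at day 6 and WT cells lay below both shRNA lines at day 10. The share of all genes on in these libraries was not counted.

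**Figure D1:**
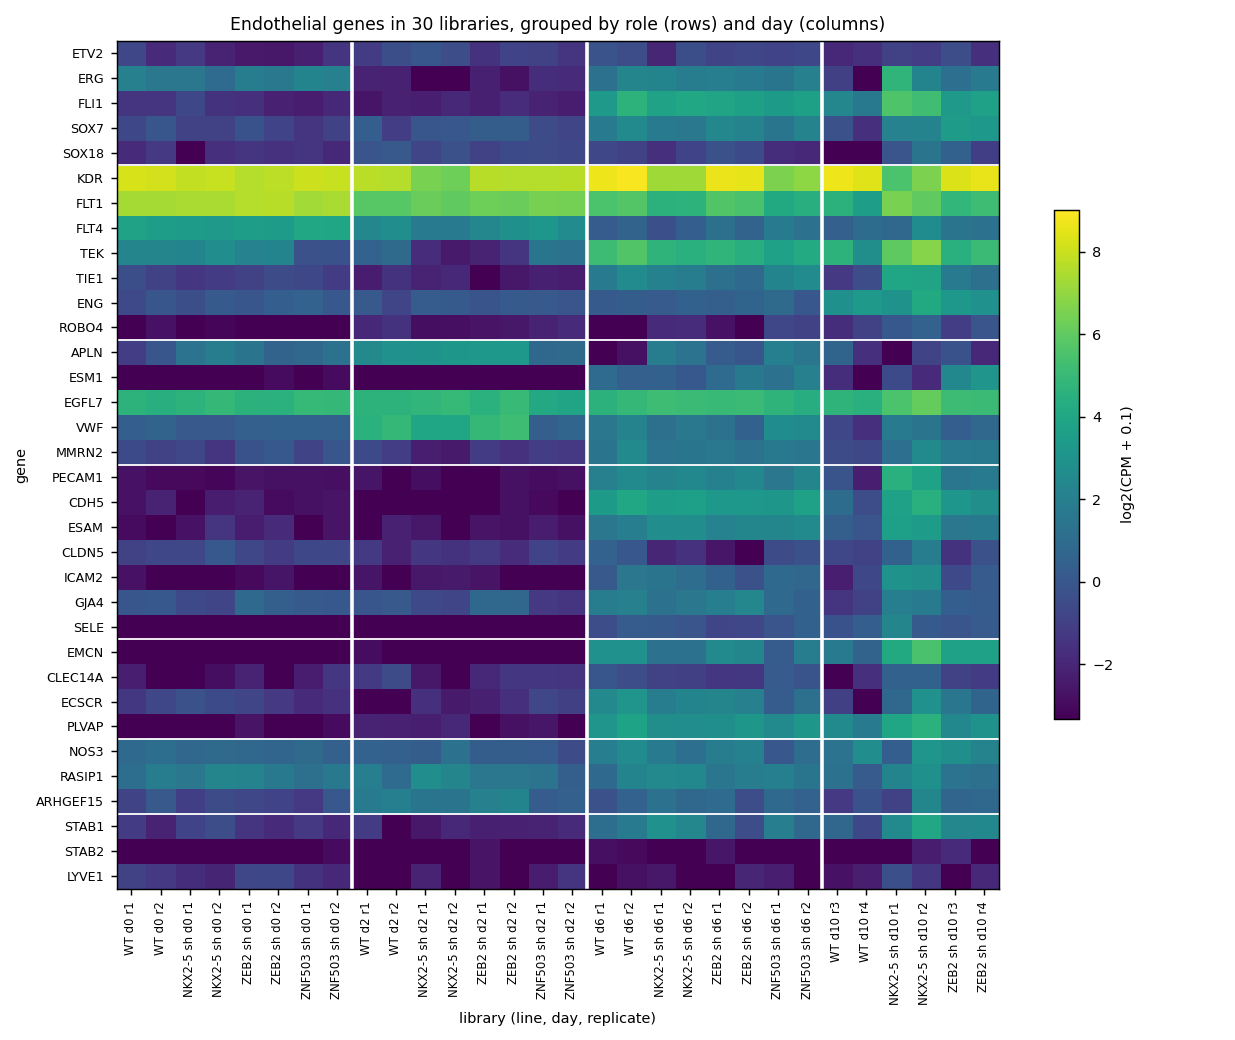
Levels of the 34 genes (rows, grouped by role from transcription factors at the top to scavenger and lymphatic genes at the bottom) in the 30 libraries (columns, by day, line and replicate), coloured by log2(CPM + 0.1). Dark cells at days 0 and 2 give way to lighter ones at day 6, and at day 10 the 2 WT libraries are dark again where those of NKX2-5 shRNA and ZEB2 shRNA cells are not. KDR, FLT1 and EGFL7 are bright in nearly every column.

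In WT cells the comparison with day 0 follows the set along the normal course of the protocol. Genes of the junctions between endothelial cells and of their surface rose between days 0 and 6. CDH5, the cadherin of endothelial junctions (chromosome 16 of GRCh37, 66400593 to 66438687), was at 0.0534 and 0.131 CPM at day 0, at 0 in both libraries of day 2, at 10.6 and 16.4 at day 6 and at 1.96 and 0.645 at day 10. Both libraries of day 6 lay above all others of the line. The log2 fold change from day 0 was 7.15 at day 6 (SE 0.57, edgeR adjusted p = 5.3e-06) and 3.95 at day 10 (SE 0.68, edgeR adjusted p = 0.000544). PLVAP, a protein of the diaphragms of small vessels, had no counts at day 0 and reached 8.58 and 13.9 CPM at day 6, at least 140-fold higher. EMCN, the sialomucin endomucin (chromosome 4, 101316498 to 101801283), was likewise at 0 at day 0 and at 7.32 and 7.41 CPM at day 6, at least 92.0-fold higher. PECAM1, an adhesion molecule of endothelial and blood cells, was at 0.0534 and 0.0262 CPM at day 0 and at 3.99 and 5.65 CPM at day 6, at least 60.2-fold higher. ESAM (41.3-fold), ICAM2 (24.3-fold), both adhesion molecules, and the secreted proteoglycan ESM1 (19.5-fold) were above their day 0 limit by at least these amounts.

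Among the receptors, TIE1 (chromosome 1, 43766653 to 43788779), a partner of the angiopoietin receptor TEK, was at 0.667 and 0.445 CPM at day 0 and at 3.34 and 6.01 at day 6 (log2 fold change 3.10, SE 0.46, edgeR adjusted p = 0.000217). TEK itself went from 4.70 and 4.79 CPM to 34.2 and 50.9 (3.19, SE 0.45, edgeR adjusted p = 0.000162). FLI1, an ETS factor, was at 0.267 and 0.262 CPM at day 0 and at 9.80 and 24.6 at day 6 (6.03, SE 0.53, edgeR adjusted p = 4.96e-06). ERG, its close relative (chromosome 21, 39751949 to 40033704), took another course: it was at 4.03 and 2.85 CPM in ESCs, at 0.129 and 0.123 at day 2, at 2.43 and 4.76 at day 6 and at 0.412 and 0 at day 10. Relative to day 0, the fitted log2 change was -4.67 at day 2 (SE 0.68, edgeR adjusted p = 0.000418) and -3.6 at day 10 (SE 0.66, edgeR adjusted p = 0.000633). ETV2, an early regulator of the lineage, stayed at or under 0.886 CPM in every library of the series at the days sampled.

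Of the 31 members tested over time in WT cells, 5 were higher and 2 lower than at day 0 by day 2 at the study's threshold for that day (4-fold and 10% FDR), against 5.26% and 3.11% of all genes tested. At day 6 (8-fold and 1% FDR) 15 were higher and 2 lower, against 6.29% and 3.94%, and the median log2 fold change of the members was 2.72. At day 10, at the same threshold, 8 were higher and 2 lower, against 10% and 5.45%, with a median of 0.40 (0.37 with genes undetected at day 0 at their bound). At 5% FDR 6 members were higher and 6 lower at day 2 (21% and 23.1% of all genes), 21 and 3 at day 6 (31.3% and 29.6%) and 13 and 6 at day 10 (39.1% and 34.7%). The 12 at day 2 became 7 without replicate 1 of day 0 and 6 without replicate 1 of day 2. Without replicate 2 of WT cells at day 6, 11 members in place of 17 passed at day 6, in a fit that assumed the remaining library to vary like the other groups.

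Some members were made from day 0 on, or peaked before day 6. KDR (chromosome 4, 55944648 to 55991762) was at 307 and 284 CPM in WT ESCs and between 196 and 466 CPM in WT cells at all later days. Per kilobase of transcript it ranked 1 at day 0 among the 32 members with a known length, with a mean of 50.7 CPM per kilobase. FLT1, the second VEGF receptor (22.6), and EGFL7, a secreted protein of the vessel wall (13.0), came next. PECAM1 and ECSCR had no length. Lengths were those of 1 standard transcript per gene, not always the transcript counted, so the ranks are approximate. The lowest transcript row of FLT1 held 51.1% of the counts of the row used at day 0. FLT1 fell over time in WT cells, from 162 and 161 CPM at day 0 to 55.6 and 56.0 at day 2 and to 24.2 and 11.7 at day 10 (log2 fold change -3.06, SE 0.24, edgeR adjusted p = 1.2e-06). FLT4, the receptor of lymphatic growth, fell from 13.5 and 11.3 CPM to 1.08 and 1.42 at day 6 (-3.25, SE 0.28, edgeR adjusted p = 4.56e-06). VWF, the clotting protein that endothelial cells and platelets store, was transient: 1.17 and 1.41 CPM at day 0, 23.4 and 29.7 at day 2, 2.90 and 4.43 at day 6 and 0.515 and 0.215 at day 10. Its rise to day 2 was 4.40 on the log2 scale (SE 0.29, edgeR adjusted p = 2.56e-06). APLN, the ligand of the apelin receptor, showed a like peak, at 5.53 and 7.48 CPM at day 2 against 0.374 and 0.890 at day 0 (3.39, SE 0.58, edgeR adjusted p = 0.00104), and was at 0 and 0.0481 CPM at day 6. ENG, a TGFβ co-receptor, was high at the last day, going from 0.560 and 0.890 CPM at day 0 and 1.04 and 1.13 at day 6 to 7.16 and 9.89 at day 10 (day 10 against day 0: 3.59, SE 0.40, edgeR adjusted p = 1.61e-05). STAB2 and LYVE1, genes of liver sinusoids and lymphatic vessels, stayed at or below 0.185 and 0.716 CPM in every library and were too low to be tested in all comparisons except that of LYVE1 at day 0.

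**Figure D2:**
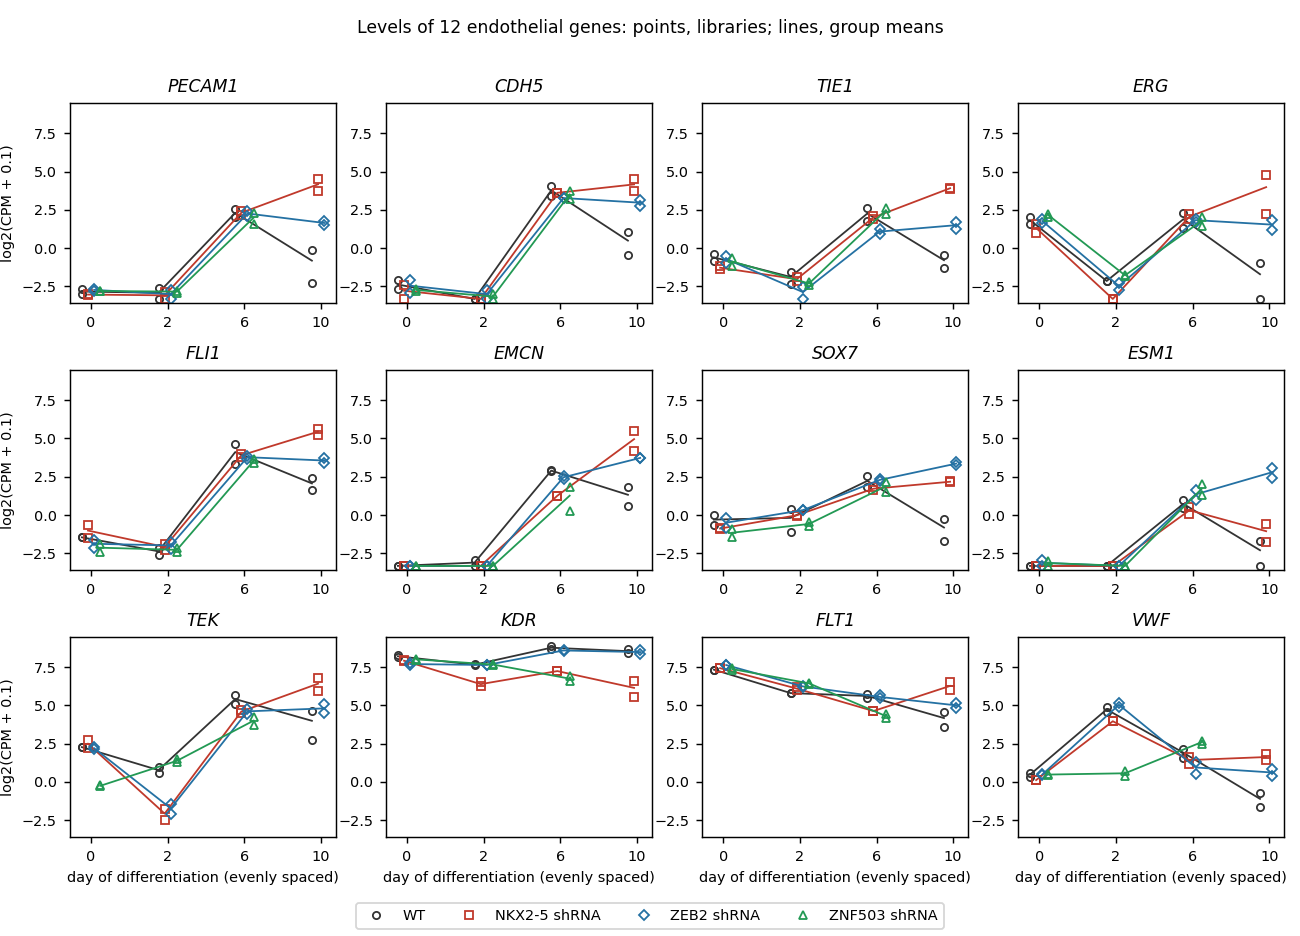
Levels of 12 of the genes over days 0, 2, 6 and 10, drawn evenly spaced, on a log2(CPM + 0.1) axis, with each library as a symbol and each group mean on a line. PECAM1, CDH5, TIE1, FLI1 and EMCN climb to day 6 in every line. At day 10 the WT symbols lie below those of NKX2-5 shRNA and ZEB2 shRNA cells for the first 7 genes, KDR is low in NKX2-5 shRNA cells, and the day 2 peak of VWF is missing in ZNF503 shRNA cells.

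Promoters are shown for TIE1, EMCN and MMRN2, which were higher in both shRNA lines at day 10, and for KDR and ESM1, which differed from WT cells in 1 of the lines there. ETS factors bind DNA around a GGAA core. RefSeq promoter windows (GRCh38.p14) were found for 21 of the 34 symbols, in 27 windows, of which the 250 bases before each transcript start were searched on both strands. The longer form AGGAAG, which holds the core, lay in 18 of the 27 windows (66.7%), or in a window of 15 of the 21 symbols, against 28.7% of all 35116 promoters. Of the windows shown, those of TIE1, EMCN and MMRN2 held it and those of KDR and ESM1 did not. Members that passed in NKX2-5 shRNA cells only were mixed in holding AGGAAG. EGFL7, ECSCR, FLT1, PLVAP, RASIP1 and ERG, which at day 10 passed 5% FDR in NKX2-5 shRNA cells only, held it in at least 1 window. TEK, CLEC14A and STAB1, which passed likewise, held none, as did KDR and ESM1. The form CGGAAG lay in 1 window (3.7%) against 16.5%. The core GGAA alone was in all 27 windows and in 92.7% of all promoters. The GATA form AGATAA was in 14.8% against 9.17%, the SOX form AACAAAG in 11.1% against 4.5% and TATAAA in 11.1% against 10.7%. Windows of 1 gene can overlap (NOS3, TEK, ERG). The member windows had a median G+C content of 61.6% and 7 CG pairs, against 58% and 11 CG pairs in all promoters, and the part of base composition in these shares was not tested. In the windows below, printed 5′ to 3′, capitals mark AGGAAG or its reverse complement CTTCCT. A match is a description of the letters and not a binding site. The windows are those of TIE1 (chr1:43300732-43300981, plus strand), EMCN (chr4:100518023-100518272, minus strand), MMRN2 (chr10:86957616-86957865, minus strand), ESM1 (chr5:54985594-54985843, minus strand) and KDR (chr4:55125596-55125845, minus strand).
TIE1: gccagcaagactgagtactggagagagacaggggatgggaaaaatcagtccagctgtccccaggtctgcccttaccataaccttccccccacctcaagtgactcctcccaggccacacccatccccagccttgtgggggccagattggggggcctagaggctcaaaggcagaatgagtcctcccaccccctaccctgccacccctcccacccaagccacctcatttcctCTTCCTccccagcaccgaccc
EMCN: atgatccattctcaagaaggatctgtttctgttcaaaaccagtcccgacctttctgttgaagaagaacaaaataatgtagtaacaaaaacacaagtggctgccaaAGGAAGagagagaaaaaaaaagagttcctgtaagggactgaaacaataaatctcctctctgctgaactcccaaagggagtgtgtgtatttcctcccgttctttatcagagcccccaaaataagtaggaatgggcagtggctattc
MMRN2: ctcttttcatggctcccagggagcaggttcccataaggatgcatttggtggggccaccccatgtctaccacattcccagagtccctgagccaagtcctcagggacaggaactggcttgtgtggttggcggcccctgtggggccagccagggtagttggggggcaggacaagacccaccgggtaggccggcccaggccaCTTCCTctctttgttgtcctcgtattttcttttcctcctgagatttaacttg
ESM1: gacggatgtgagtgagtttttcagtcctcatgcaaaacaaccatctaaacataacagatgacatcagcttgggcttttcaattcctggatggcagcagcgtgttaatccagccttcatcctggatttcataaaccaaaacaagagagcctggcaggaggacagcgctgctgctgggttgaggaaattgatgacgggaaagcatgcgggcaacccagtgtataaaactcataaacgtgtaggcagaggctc
KDR: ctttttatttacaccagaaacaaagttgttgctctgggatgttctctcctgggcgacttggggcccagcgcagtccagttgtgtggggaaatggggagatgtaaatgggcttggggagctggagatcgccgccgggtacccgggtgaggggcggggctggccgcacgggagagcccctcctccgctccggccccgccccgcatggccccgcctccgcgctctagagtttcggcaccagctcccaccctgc

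At day 0 the lines were compared with WT cells after viral infection but before differentiation was started, and few members passed. At the study's threshold for that day (2-fold and 10% FDR), 1 of the 23 members tested was higher in each line, namely APLN, against 2.64% of all genes in NKX2-5 shRNA, 1.43% in ZEB2 shRNA and 1.32% in ZNF503 shRNA cells. APLN was at 2.46 and 3.56 CPM in NKX2-5 shRNA, 2.57 and 1.43 in ZEB2 shRNA and 1.66 and 2.32 in ZNF503 shRNA cells, all above the WT libraries (log2 fold changes 2.24, 1.64 and 1.65, edgeR adjusted p = 0.00553, 0.0531 and 0.039). TEK was the 1 member called lower, in ZNF503 shRNA cells only at this threshold, where lower calls made up 1.25% of all genes. Its 2 libraries there held 0.719 and 0.760 CPM against 4.34 to 6.49 in the other 6 libraries of the day (log2 fold change -2.68, SE 0.25, edgeR adjusted p = 9.42e-05). At 5% FDR 1 member was higher and 1 lower in NKX2-5 shRNA (8.22% and 7.64% of all genes), 0 and 1 in ZEB2 shRNA (2.48% and 1.46%) and 1 and 1 in ZNF503 shRNA cells (3.99% and 3.51%). In the first of these lines and in ZEB2 shRNA cells the lower gene was KDR, with log2 fold changes of -0.31 and -0.54 (SE 0.09 each). Both calls of KDR were lost without either WT library, and that in NKX2-5 shRNA cells also without its replicate 1. The call of APLN at 5% FDR in ZNF503 shRNA cells was lost without any 1 of the 4 libraries. At 2-fold and 10% FDR the 2 calls in that line became 1 without either of its libraries or replicate 1 of WT cells, and the call of APLN in ZEB2 shRNA cells was lost without replicate 1 of either group.

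At day 2, when mesoderm forms, 19 members were tested, and some differed from WT cells in 1 line and others in 2. In NKX2-5 shRNA cells KDR was at 90.8 and 76.8 CPM against 208 and 196 in WT cells, with no overlap (log2 fold change -1.30, SE 0.09, edgeR adjusted p = 5.83e-07). The other lines held 196 to 206 CPM, close to the WT libraries. TEK was at 0.195 and 0.0825 CPM in NKX2-5 shRNA and 0.138 and 0.266 in ZEB2 shRNA cells, below the 1.38 and 1.84 of WT cells (log2 fold changes -3.35 and -2.97, SE 0.49 and 0.47, edgeR adjusted p = 0.000268 and 0.0107). In ZNF503 shRNA cells TEK was at 2.67 and 2.34 CPM. VWF lacked its day 2 peak in 1 line: it was at 1.24 and 1.53 CPM in ZNF503 shRNA cells against 23.4 and 29.7 in WT cells (-4.38, SE 0.20, edgeR adjusted p = 2.02e-09). VWF was at 15.4 and 15.6 CPM in NKX2-5 shRNA cells (-0.80, SE 0.16, edgeR adjusted p = 0.0024) and at 29.6 and 36.1 in ZEB2 shRNA cells. APLN followed VWF in ZNF503 shRNA cells, at 1.61 and 1.84 CPM against 5.53 and 7.48 (-1.98, SE 0.23, edgeR adjusted p = 2.15e-05), as did ARHGEF15 at 1.09 and 1.26 against 3.38 and 3.86 (-1.70, SE 0.27, edgeR adjusted p = 0.000264).

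At the day 2 threshold 1 member was higher and 3 were lower in NKX2-5 shRNA cells, against 0.484% and 0.708% of all genes. For ZEB2 shRNA 0 were higher and 1 was lower, against 0.0121% and 0.121%, and in ZNF503 shRNA cells 1 was higher and 1 lower, against 0.817% and 1.99%. The count of 0 rests on edgeR, and at an unadjusted p under 0.05 there were 4 members in either direction in ZEB2 shRNA cells, while DESeq2 also called 0 higher. Besides TEK, the members lower in NKX2-5 shRNA cells were CLEC14A, a surface lectin (0.0709 and 0 CPM against 0.322 and 0.613 in WT cells), and MMRN2, a matrix protein of vessels (0.106 and 0.0825 against 0.579 and 0.368). ECSCR, a surface regulator of endothelial movement, had no counts in WT cells at day 2 and was at 0.213 and 0.0825 CPM in NKX2-5 shRNA and 0.517 and 0.405 in ZNF503 shRNA cells. Against the limit of detection ZNF503 shRNA cells were at least 2.50-fold higher, while in NKX2-5 shRNA cells no bound above 1 can be given. ECSCR was the 1 member called higher by 4-fold in each of these lines, although neither bound reaches 4-fold. It passed the filter on low counts through ZNF503 shRNA cells alone. At 5% FDR 1 was higher and 6 lower in NKX2-5 shRNA cells (13% and 13.6% of all genes), 0 and 1 in ZEB2 shRNA cells (0.206% and 0.285%) and 2 and 5 in ZNF503 shRNA cells (13.1% and 13.7%). The 4 calls in NKX2-5 shRNA cells at the stricter threshold became 2 without replicate 1 of that line or either WT library, and the 7 at 5% FDR became 4 without either library of the line or replicate 2 of WT. TEK in ZEB2 shRNA cells missed 5% FDR without its replicate 1 or replicate 2 of WT.

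At day 6, when WT cultures first made CM genes, members lay on both sides of WT in all 3 lines, mostly by small amounts. Of the 32 members tested, 1 was higher and 0 were lower in NKX2-5 shRNA cells at 8-fold and 1% FDR, against 1.29% and 3.42% of all genes. For ZEB2 shRNA 1 was higher and 1 lower, against 0.237% and 0.225%, and in ZNF503 shRNA cells 2 were higher and 0 lower, against 1% and 2.91%. For the counts of 0, 13 and 14 members had an unadjusted edgeR p under 0.05 in either direction in NKX2-5 shRNA and ZNF503 shRNA cells, and DESeq2 also called 0 lower. At 5% FDR with no fold limit, 4 were higher and 6 lower in NKX2-5 shRNA cells, against 24.5% and 24.7% of all genes, shares of the members below those of all genes. The numbers were 1 and 3 for ZEB2 shRNA (5.67% and 5.33%) and 5 and 7 for ZNF503 shRNA (27.2% and 28.5%). The median log2 fold changes of the members were -0.39, -0.25 and -0.28. PECAM1, CDH5, ERG and FLI1 were among the members that did not pass 5% FDR in any line. CDH5, for example, was at 12 and 12.3 CPM in NKX2-5 shRNA, 9.56 and 9.51 in ZEB2 shRNA and 9.06 and 13.4 in ZNF503 shRNA cells, against 10.6 and 16.4 in WT cells.

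The receptors and surface proteins made up most of the lower genes at day 6. KDR was at 150 and 153 CPM in NKX2-5 shRNA and 94.5 and 120 in ZNF503 shRNA cells, below the 407 and 466 of WT and the 394 and 376 of ZEB2 shRNA cells. The log2 fold changes were -1.53 (SE 0.13, edgeR adjusted p = 1.02e-06) and -2.03 (SE 0.13, edgeR adjusted p = 1.67e-07). FLT1 went with it, at 24.3 and 25.1 CPM and 17.8 and 21.7 CPM against 45.6 and 52.4 in WT cells (-0.99 and -1.32, SE 0.14 and 0.15, edgeR adjusted p = 0.00011 and 1.43e-05). TEK was lower in all 3 lines, at 22.1 to 26.7 CPM in NKX2-5 shRNA and ZEB2 shRNA cells and 13.2 and 18.7 in ZNF503 shRNA cells, against 34.2 and 50.9 in WT cells. Its log2 fold changes were -0.83, -0.79 and -1.42 (SE 0.21 each, edgeR adjusted p = 0.00557, 0.0293 and 0.000157). EMCN was at 2.32 and 2.28 CPM in NKX2-5 shRNA and 1.12 and 3.49 in ZNF503 shRNA cells against 7.32 and 7.41 in WT cells (-1.69 and -1.65, edgeR adjusted p = 0.00213 and 0.00277). CLDN5, a tight junction protein, was near 0 in 2 of the lines, at 0.147 and 0.240 CPM in NKX2-5 shRNA and 0.0666 and 0 in ZEB2 shRNA cells against 1.39 and 0.914 in WT cells (-2.47 and -4.33, SE 0.57 and 0.73, edgeR adjusted p = 0.00334 and 0.00201). TIE1 was lower in ZEB2 shRNA cells, at 2.25 and 1.77 CPM (-1.19, SE 0.32, edgeR adjusted p = 0.0316). ECSCR (-2.04), GJA4, a gap junction connexin of arteries (-1.36), and NOS3, the endothelial nitric oxide synthase (-1.72), were lower in ZNF503 shRNA cells, with edgeR adjusted p = 0.000396, 0.00259 and 0.00282.

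APLN was higher than in WT cells in all 3 lines at day 6. At day 2 it had been at 7.57 and 9.16 CPM in NKX2-5 shRNA and 9.29 and 9.32 in ZEB2 shRNA cells, above their libraries of day 6. At day 6 it was at 0 and 0.0481 CPM in WT cells, at 3.53 and 2.46 in NKX2-5 shRNA, 1.12 and 0.885 in ZEB2 shRNA and 3.87 and 2.72 in ZNF503 shRNA cells. Against the limit of detection it was at least 23.0-fold, 7.69-fold and 25.3-fold higher. ROBO4, a guidance receptor of endothelial cells, had no counts in WT cells and was at 0.184 and 0.200 CPM in NKX2-5 shRNA and 0.509 and 0.446 in ZNF503 shRNA cells, at least 1.48-fold and 3.67-fold higher. ROBO4 passed the filter on low counts through ZNF503 shRNA cells alone. It is 1 of the 2 members called higher by 8-fold in that line, although its bound is below 8-fold. ESAM was modestly higher in NKX2-5 shRNA and ZNF503 shRNA cells, at 6.54 and 6.59 CPM and 4.94 and 5.67 CPM against 2.82 and 3.8 (0.97 and 0.66, SE 0.24 and 0.25, edgeR adjusted p = 0.00526 and 0.037). STAB1, a scavenger receptor of sinusoidal endothelium and macrophages, was at 7.54 and 5.07 CPM in NKX2-5 shRNA cells against 2.12 and 3.22 (1.20, SE 0.41, edgeR adjusted p = 0.0281). FLT4 (1.14) and ESM1 (1.07) were higher in ZNF503 shRNA cells, with edgeR adjusted p = 0.0248 and 0.0385. Of the members at 5% FDR at day 6, 6 of 10 in NKX2-5 shRNA, 2 of 4 in ZEB2 shRNA and 9 of 12 in ZNF503 shRNA cells kept that call with any 1 library left out. The 4 in ZEB2 shRNA cells became 2 without either of its libraries or replicate 2 of WT. At 8-fold and 1% FDR the 2 calls in ZEB2 shRNA cells became 0 without its replicate 1 and 1 without its replicate 2 or replicate 1 of WT cells, and the 2 calls in ZNF503 shRNA cells became 1 without any 1 of the 4 libraries.

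Set against each other at day 6, NKX2-5 shRNA and ZNF503 shRNA cells differed in 0 of 32 members at 8-fold and 1% FDR (0 by edgeR and by DESeq2, with 12 at an unadjusted p under 0.05; 0.237% and 0.158% of all genes were higher and lower). At 5% FDR 3 were higher and 3 lower in NKX2-5 shRNA cells, against 5.91% and 8.8% of all genes, and the 6 became 0 and 1 without replicates 1 and 2 of NKX2-5 shRNA cells and 2 without replicate 1 of ZNF503 shRNA cells. NKX2-5 shRNA and ZEB2 shRNA cells also differed in 0 members at the strict threshold (0 by edgeR and by DESeq2, with 11 at an unadjusted p under 0.05; 1.07% and 3.52% of all genes). Without replicate 1 of ZEB2 shRNA cells 1 member passed. At 5% FDR APLN, STAB1 and TIE1 were higher in NKX2-5 shRNA cells and EMCN, FLT1 and KDR lower, against 21.3% and 23.1% of all genes, and 3 of the 6 passed without replicate 1 of NKX2-5 shRNA cells. The difference in KDR was -1.36 (SE 0.13, edgeR adjusted p = 3.14e-06) and that in FLT1 was -0.94 (SE 0.14, edgeR adjusted p = 0.000204).

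At day 10 the set stood well above WT in NKX2-5 shRNA cells and, less widely, in ZEB2 shRNA cells. In NKX2-5 shRNA cells 11 of the 31 members tested were higher by 8-fold at 1% FDR and 0 were lower, against 4.46% and 2.85% of all genes. At 5% FDR 22 were higher and 1, KDR, was lower, against 23.3% and 20.6%. The median log2 fold change of the members was 2.77, or 2.41 with genes undetected in WT cells at their bound, and 29 of 31 were higher. In ZEB2 shRNA cells 2 were higher and 0 lower at 8-fold and 1% FDR, against 0.976% and 0.482%, and 10 were higher and 0 lower at 5% FDR, against 10.5% and 7.68%. There the median was 1.55 (1.45 with bounds) and 27 of 31 were higher. Over all genes tested the median was 0.0283 in NKX2-5 shRNA and 0.0258 in ZEB2 shRNA cells. The share of all genes that were higher was not counted. The counts of 0 lower rest on edgeR, with 24 and 15 members at an unadjusted p under 0.05 in either direction, and DESeq2 also called 0 lower by 8-fold. Both comparisons share the 2 WT libraries.

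**Figure D3:**
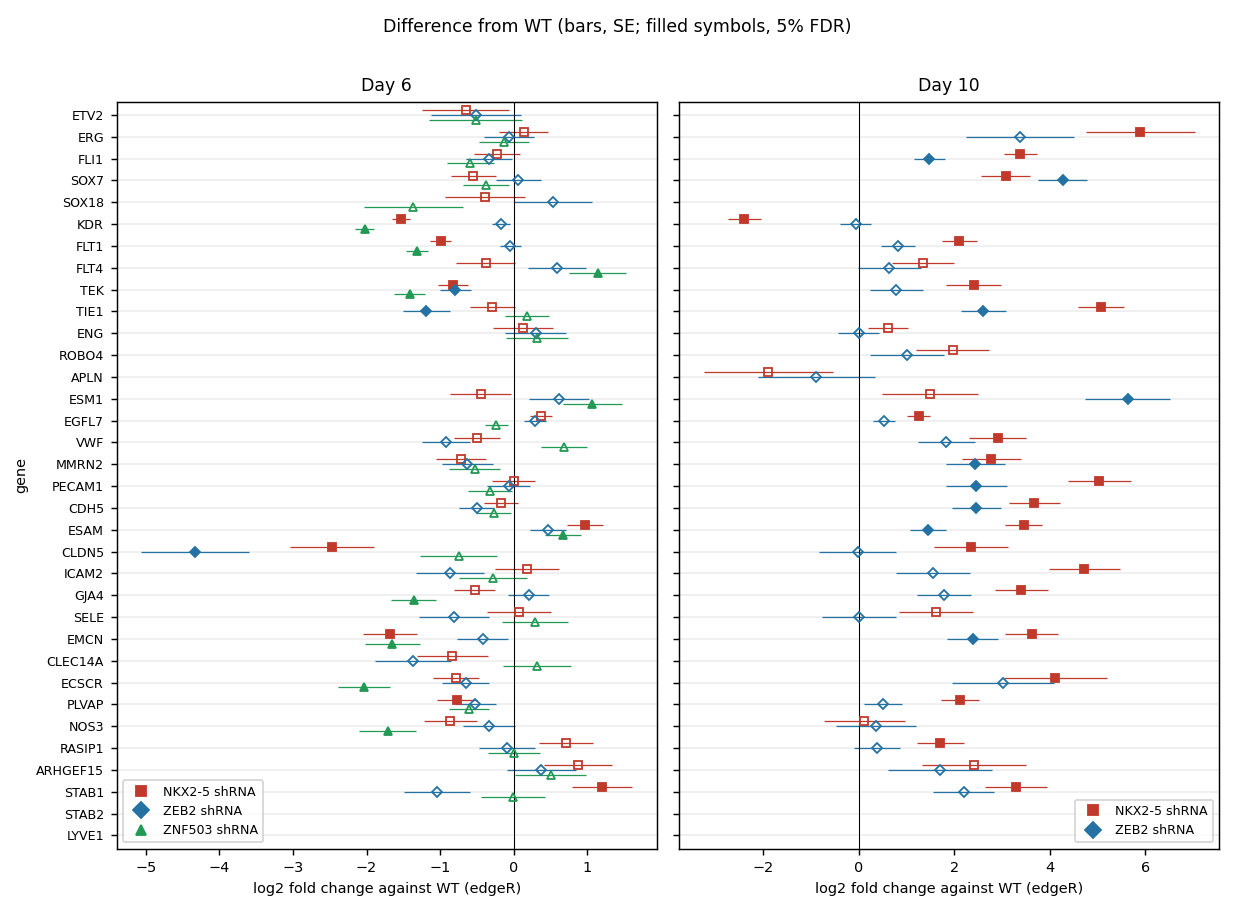
Log2 fold change of each member against WT at day 6 (left) and day 10 (right), with bars for the SE worked back from edgeR's test and filled symbols for 5% FDR. Genes at the limit of detection in 1 of the groups, and those not tested, are left out. At day 6 the symbols lie on both sides of 0, while at day 10 most lie to its right, those of NKX2-5 shRNA cells mostly beyond those of ZEB2 shRNA cells, and KDR lies at -2.40 in NKX2-5 shRNA cells.

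Of the 5 transcription factors, ETV2 was too low to be tested at day 10. The other 4 were higher at 5% FDR in NKX2-5 shRNA cells, against 23.3% of all genes. FLI1 was at 48.9 and 37.8 CPM in NKX2-5 shRNA and 10.2 and 13.1 in ZEB2 shRNA cells, above the 5.15 and 3.01 of WT cells. The log2 fold changes were 3.38 (SE 0.34, edgeR adjusted p = 0.000545) and 1.48 (SE 0.33, edgeR adjusted p = 0.0224). ERG was at 26.8 and 4.58 CPM in NKX2-5 shRNA cells, which differed widely between the replicates but lay above the 0.412 and 0 of WT cells (5.90, SE 1.14, edgeR adjusted p = 0.00599). With ZEB2 shRNA it was at 2.16 and 3.41 CPM and did not pass (3.38, SE 1.13, edgeR adjusted p = 0.0786). SOX7 (chromosome 8, 10581278 to 10588021) was the factor with the larger difference in ZEB2 shRNA cells, at 11 and 9.34 CPM against 4.29 and 4.54 in NKX2-5 shRNA and 0.722 and 0.215 in WT cells. Its log2 fold changes were 4.27 in ZEB2 shRNA (SE 0.52, edgeR adjusted p = 0.00367) and 3.08 in NKX2-5 shRNA cells (SE 0.51, edgeR adjusted p = 0.00327). PINX1 shares 39.4% of the exon bases of SOX7 on the same strand, and at day 0, where PINX1 was at 27.8 to 44.4 CPM, SOX7 was at 0.270 to 0.890. At day 10 PINX1 was at 7.18 to 8.59 CPM in NKX2-5 shRNA and 6.48 to 7.26 in ZEB2 shRNA cells, against 3.61 to 5.38 in WT cells. The part of PINX1 reads in the counts of SOX7 was not tested. SOX18 had no counts in WT cells, so it passed the filter on low counts through the shRNA lines alone. It was at 0.859 and 2.55 CPM in NKX2-5 shRNA and 1.30 and 0.384 in ZEB2 shRNA cells, at least 5.29-fold and 2.61-fold higher.

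The receptors split. TIE1 was at 15.4 and 14.5 CPM in NKX2-5 shRNA and 3.18 and 2.26 in ZEB2 shRNA cells, against 0.309 and 0.645 in WT cells, with no overlap among the lines. Its log2 fold changes were 5.07 (SE 0.49, edgeR adjusted p = 0.000458) and 2.61 (SE 0.48, edgeR adjusted p = 0.0119). TEK was at 62.3 and 109 CPM in NKX2-5 shRNA cells against 25.0 and 6.67 in WT cells (2.41, SE 0.58, edgeR adjusted p = 0.0133), and at 22.4 and 33.4 in ZEB2 shRNA cells, which overlapped WT. FLT1 was at 90.5 and 64.0 CPM in NKX2-5 shRNA cells against 24.2 and 11.7 (2.10, SE 0.37, edgeR adjusted p = 0.00402). KDR went the other way, at 46.0 and 95.4 CPM in NKX2-5 shRNA cells against 411 and 336 in WT cells (-2.40, SE 0.35, edgeR adjusted p = 0.00193), while ZEB2 shRNA cells held 327 and 389 CPM. On the same approximate scale per kilobase, the leading members in NKX2-5 shRNA cells were EGFL7 (32.1 CPM per kilobase), TEK (18.3) and KDR (12.1). In WT cells KDR led with 64.0. ENG, FLT4 and ROBO4 did not pass 5% FDR in either line.

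Of the 7 junction and adhesion genes, 6 were higher at 5% FDR in NKX2-5 shRNA cells, against 23.3% of all genes. PECAM1 was at 22.2 and 13.4 CPM in NKX2-5 shRNA and 2.75 and 3.29 in ZEB2 shRNA cells, against 0.825 and 0.108 in WT cells. This gave log2 fold changes of 5.04 (SE 0.66, edgeR adjusted p = 0.00133) and 2.46 (SE 0.64, edgeR adjusted p = 0.037). CDH5 was at 13.2 and 22.3 CPM in NKX2-5 shRNA and 8.74 and 6.66 in ZEB2 shRNA cells, against 1.96 and 0.645 (3.67 and 2.46, SE 0.53 and 0.52, edgeR adjusted p = 0.00196 and 0.0193). ESAM was at 12.4 and 11.2 CPM and 2.87 and 3.07 CPM against 1.24 and 0.860 (3.45 and 1.45, SE 0.39 and 0.38, edgeR adjusted p = 0.000789 and 0.0367). ICAM2 was at 7.73 and 6.66 CPM in NKX2-5 shRNA cells against 0.103 and 0.538 (4.72, SE 0.75, edgeR adjusted p = 0.00269), and at 0.556 and 1.07 in ZEB2 shRNA cells. PRR29 covers 42.6% of the exon bases of ICAM2 on the opposite strand, and it was at 0.334 and 1.37 CPM in NKX2-5 shRNA and 1.03 to 3.76 in WT cells. GJA4 was at 3.77 and 3.21 CPM in NKX2-5 shRNA cells against 0.258 and 0.430 (3.41, SE 0.55, edgeR adjusted p = 0.00304). CLDN5 was at 1.34 and 3.59 CPM against 0.515 and 0.430 (2.35, SE 0.78, edgeR adjusted p = 0.0439), and SELE, an adhesion molecule of inflamed endothelium, was at 4.82 and 1.04 CPM against 0.773 and 1.18 and did not pass.

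All 4 surface glycoproteins were higher in NKX2-5 shRNA cells at 5% FDR, against 23.3% of all genes. EMCN was at 17.7 and 44.2 CPM in NKX2-5 shRNA and 13.0 and 13.4 in ZEB2 shRNA cells, against 3.40 and 1.40 in WT cells (3.62 and 2.38, SE 0.55 and 0.53, edgeR adjusted p = 0.00232 and 0.0236). PLVAP was at 15.7 and 23.5 CPM in NKX2-5 shRNA cells against 5.77 and 3.12 (2.12, SE 0.41, edgeR adjusted p = 0.00587). CLEC14A was at 1.34 and 1.32 CPM against 0 and 0.215, at least 4.12-fold higher, and ECSCR at 1.67 and 7.37 CPM against 0.412 and 0 (4.12, SE 1.07, edgeR adjusted p = 0.0184).

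Among the secreted factors, ESM1 was higher in ZEB2 shRNA cells than in the other lines at day 10, and it passed the filter on low counts through that line. It was at 5.22 and 8.49 CPM there, against 0.572 and 0.189 in NKX2-5 shRNA and 0.206 and 0 in WT cells (5.63 against WT, SE 0.89, edgeR adjusted p = 0.00768). MMRN2 was at 2.15 and 5.91 CPM in NKX2-5 shRNA and 3.40 and 3.03 in ZEB2 shRNA cells against 0.618 and 0.538 (2.77 and 2.44, edgeR adjusted p = 0.0103 and 0.0345). VWF was at 3.43 and 2.55 CPM in NKX2-5 shRNA cells against 0.515 and 0.215 (2.91, SE 0.60, edgeR adjusted p = 0.00748). EGFL7, which WT cells made at 21.0 to 29.5 CPM at all 4 days, was at 45.4 and 67.7 CPM in NKX2-5 shRNA cells at day 10 (1.25, SE 0.24, edgeR adjusted p = 0.00595). APLN, high at day 6, was at 0 and 0.473 CPM in NKX2-5 shRNA and 0.772 and 0.171 in ZEB2 shRNA cells and overlapped WT at 1.44 and 0.215. STAB1 was at 5.87 and 16.4 CPM in NKX2-5 shRNA cells against 1.60 and 0.538 (3.28, SE 0.65, edgeR adjusted p = 0.00649), and 5.19 and 5.38 in ZEB2 shRNA cells (2.2, SE 0.64, edgeR adjusted p = 0.0518). Of the signalling genes, RASIP1, a regulator of vessel lumens, passed in NKX2-5 shRNA cells (1.70, SE 0.49, edgeR adjusted p = 0.0267) and NOS3 and ARHGEF15 passed in neither line. NOS3 was at 1.19 and 8.37 CPM in the 2 libraries of NKX2-5 shRNA cells, and its transcript rows disagreed, the lowest holding 37.5% of the counts of the row used at day 10 and 7.02% at day 0.

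The strict count in NKX2-5 shRNA cells depended on the WT libraries. Without replicate 3 of WT cells 5 members and without replicate 4 of WT cells 2 members passed 8-fold and 1% FDR in place of 11, in fits that assumed the lone WT library to vary like the other groups. At 5% FDR 18 to 26 members passed with any 1 library left out, and 17 of the 23 kept their call in each of these fits, KDR, TIE1, PECAM1, CDH5, ERG, FLI1 and EMCN among them. The comparison of ZEB2 shRNA with WT cells had 0 members past the strict threshold with any 1 of its libraries left out, and 1 to 4 passed 5% FDR. SOX7 was the 1 member of 10 that kept its call at 5% FDR there in each of these fits.

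Markers of other cell types moved with the lines at day 10. The 8 CM markers summed to 15896 to 19001 CPM in WT, 4536 to 6493 in ZEB2 shRNA and 61.7 to 379 in NKX2-5 shRNA cells. The 13 blood markers summed to 1667 to 1997 CPM in NKX2-5 shRNA cells, against 18.5 to 80.2 in WT and 28.1 to 28.3 in ZEB2 shRNA cells. In NKX2-5 shRNA cells 11 of the 13 were at 1 CPM or more, among them the embryonic globin HBE1 (694 and 790 CPM), TAL1 (41.6 and 30.4), GATA1 (21.0 and 9.12) and RUNX1 (25.7 and 15.3), while PTPRC, the common leukocyte antigen, had no counts. The 7 hepatic and endoderm markers, led by liver and yolk sac genes, summed to 26959 to 38535 CPM in NKX2-5 shRNA, 6434 to 7798 in ZEB2 shRNA and 1466 to 3600 in WT cells. PECAM1, FLI1, ERG, ESAM, ICAM2 and VWF are also made by blood cells or their progenitors. The blood sum of ZEB2 shRNA cells lay within the range of WT cells. PTPRC had no counts in any group analysed at day 10, and GATA1 had none in ZEB2 shRNA cells. RUNX1, which progenitors of blood also make, was at 13.7 and 11 CPM there against 1.34 and 0.430 in WT cells. The part of these cell types in the differences of both lines was not tested.

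At day 6 the lists differed by line while the number of members on overlapped. CM markers summed to 9283 to 11806 CPM in WT, 5181 to 5662 in ZEB2 shRNA, 162 to 222 in ZNF503 shRNA and 41.7 to 50.8 in NKX2-5 shRNA cells, and the number of members on was 24 and 26, 26 and 22, 26 and 26, and 26 and 25. Blood markers summed to 44.5 to 45.1 CPM in NKX2-5 shRNA and 31.7 to 32.7 in ZEB2 shRNA cells, above the 14.6 to 23.9 of WT and the 12.8 to 14.1 of ZNF503 shRNA cells. Hepatic and endoderm markers summed to 3129 to 3231 CPM in NKX2-5 shRNA and 2349 to 2480 in ZNF503 shRNA cells, against 324 to 659 in WT and 302 to 428 in ZEB2 shRNA cells. Smooth muscle markers summed to 154 to 221 CPM in NKX2-5 shRNA, 540 to 593 in ZEB2 shRNA and 652 to 842 in ZNF503 shRNA cells against 802 to 1111 in WT cells, and lay between 447 and 885 over the lines at day 10. Over all lines at days 6 and 10, pluripotent markers lay between 1084 and 1624 and between 101 and 320, and epicardial markers between 2.06 and 7.89 and between 6.68 and 35.2.

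**Figure D4:**
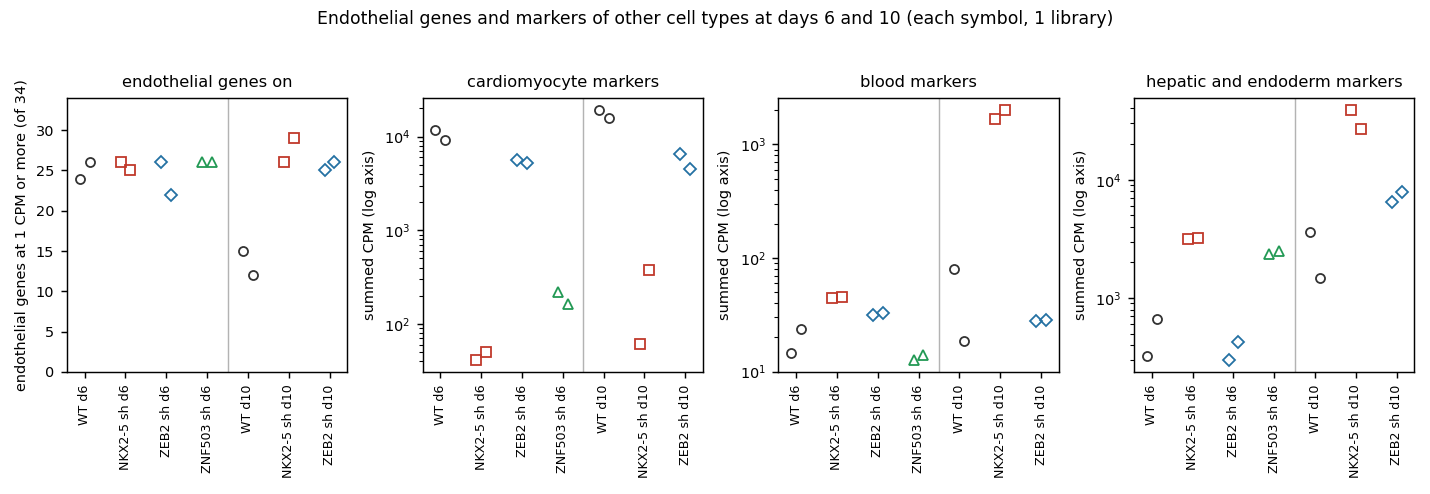
Left, the number of the 34 genes at 1 CPM or more in each library at days 6 and 10; right, the summed CPM of 8 CM, 13 blood and 7 hepatic and endoderm markers in the same libraries on log axes. The members number 22 to 26 in all lines at day 6 although CM markers differ by line, and at day 10 WT cells alone are low (15 and 12) while blood markers are high in NKX2-5 shRNA cells only. The share of all genes at 1 CPM or more was not counted.

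The change between days 6 and 10 was compared between lines by an interaction term, which asks whether WT and shRNA cells moved differently over this interval. The group mean was lower at day 10 than at day 6 for 28 of 34 members in WT cells, for 4 in NKX2-5 shRNA and for 15 in ZEB2 shRNA cells. The share of all genes with a lower mean was not counted. In NKX2-5 shRNA cells the change differed from WT upward in 16 of 32 members and downward in 1, APLN, at 8-fold and 1% FDR, against 2.28% and 0.63% of all genes. At 5% FDR 20 were upward and 1 downward, against 14.5% and 10.5%. The median difference was 3.16 on the log2 scale, against 0.0764 over all genes tested. For TIE1 the difference was 5.38 (SE 0.57, edgeR adjusted p = 0.00021): WT cells were at 3.34 and 6.01 CPM at day 6 and 0.309 and 0.645 at day 10, NKX2-5 shRNA cells at 4.15 and 3.65 and then at 15.4 and 14.5. For EMCN it was 5.31 (SE 0.62, edgeR adjusted p = 0.000349) and for FLI1 3.60 (SE 0.55, edgeR adjusted p = 0.00134). KDR, already low at day 6 in NKX2-5 shRNA cells, did not pass (-0.85, SE 0.37, edgeR adjusted p = 0.118). In ZEB2 shRNA cells 2 members differed upward and 0 downward, against 0.287% and 0.0688% of all genes (0 downward by edgeR and by DESeq2, with 20 members at an unadjusted p under 0.05 in either direction), namely SOX7 (4.17, SE 0.56, edgeR adjusted p = 0.0039) and TIE1 (3.81, SE 0.59, edgeR adjusted p = 0.00686), and the median was 1.79. At 5% FDR 8 were upward and 0 downward, against 3.82% and 2.48%, and 2 to 8 passed with 1 library left out. PECAM1 there was at 4.13 and 5.24 CPM at day 6 and 2.75 and 3.29 at day 10, and CDH5 at 9.56 and 9.51 and then 8.74 and 6.66. The 17 calls of NKX2-5 shRNA cells became 7 to 11 without any 1 library of day 6 in either line or of day 10 in WT cells, with 19 of 21 kept at 5% FDR in each of these fits. The 2 calls in ZEB2 shRNA cells became 0, or 1 without replicate 3 of WT cells at day 10, without each of 7 libraries.

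**Figure D5:**
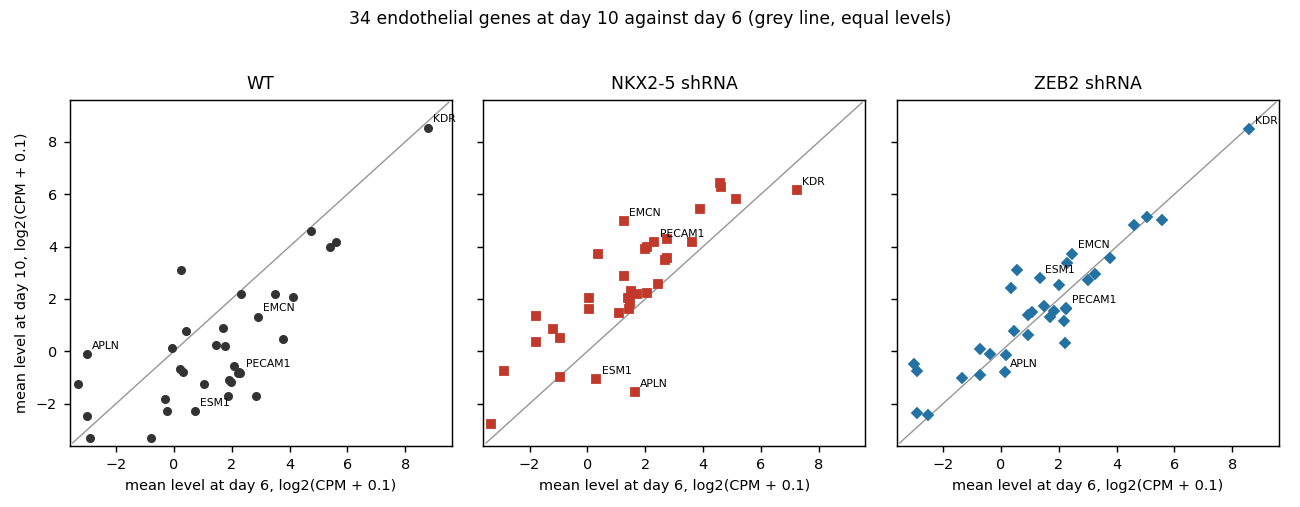
Mean level of each of the 34 genes at day 10 against day 6, both as log2(CPM + 0.1), in WT, NKX2-5 shRNA and ZEB2 shRNA cells, with the grey line at equal levels. In WT cells 28 genes lie under the line, in NKX2-5 shRNA cells 30 lie over it and in ZEB2 shRNA cells 19 lie over and 15 under it. Shares of all genes were not counted.

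Compared directly at day 10, NKX2-5 shRNA and ZEB2 shRNA cells differed in 0 of 31 members at 8-fold and 1% FDR (edgeR, with 18 at an unadjusted p under 0.05 and 2 called by DESeq2), against 0.753% and 1.19% of all genes, and 2 or 3 members passed with 1 of the NKX2-5 shRNA libraries left out. At 5% FDR 8 were higher in NKX2-5 shRNA cells (ESAM, FLI1, FLT1, GJA4, ICAM2, PECAM1, PLVAP and TIE1) and 2 lower (ESM1 and KDR), against 10.6% and 10.8%, and the median difference was 1.21. The difference was 2.46 for TIE1 (SE 0.39, edgeR adjusted p = 0.00791), -4.13 for ESM1 (SE 0.74, edgeR adjusted p = 0.0116) and -2.33 for KDR (SE 0.35, edgeR adjusted p = 0.0065). KDR alone kept its call with any 1 library left out, 1 member passed without either ZEB2 shRNA library and 19 passed without replicate 1 of NKX2-5 shRNA cells. The higher level of SOX7 in ZEB2 shRNA cells did not pass (-1.19, SE 0.42, edgeR adjusted p = 0.0811).

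Beside the 34 genes, 39 other genes of vessel development were counted, among them ligands, receptors and regulators, of which 33 were tested at days 0 and 2 and 38 at days 6 and 10. Shares of all genes called higher and lower stand in brackets. At day 0 2 were higher and 2 lower in NKX2-5 shRNA (2.64% and 1.4%), 3 and 0 in ZEB2 shRNA (1.43% and 0.782%) and 2 and 4 in ZNF503 shRNA cells (1.32% and 1.25%) at the threshold of that day. At day 2 1 was higher and 1 lower in NKX2-5 shRNA (0.484% and 0.708%), 0 and 0 in ZEB2 shRNA (0.0121% and 0.121%) and 3 and 4 in ZNF503 shRNA cells (0.817% and 1.99%). By edgeR 3 of the 33 had an unadjusted p under 0.05 in ZEB2 shRNA cells at day 2, and 13 of the 33 at day 0. APLNR, the apelin receptor, was at 11.7 ± 1.65 CPM (SD, n = 2) in NKX2-5 shRNA and 5.24 ± 1.25 in ZNF503 shRNA cells against 80.0 ± 8.40 in WT cells (log2 fold changes -2.82 and -4.05, edgeR adjusted p = 9.22e-07 and 6.29e-09). SOX17, a factor of arterial endothelium and of endoderm, was at 3.73 ± 0.640 CPM in ZNF503 shRNA cells against 55.8 ± 3.13 (-4.01, SE 0.18, edgeR adjusted p = 1.71e-09). ANGPT1, a ligand of TEK, was at 3.85 ± 1.06 CPM in ZNF503 shRNA cells against 0.155 ± 0.128 (4.83, SE 0.51, edgeR adjusted p = 7.45e-06). At day 6 0 of the 38 were higher and 4 lower at 8-fold and 1% FDR in NKX2-5 shRNA cells (1.29% and 3.42%), and 1 was higher and 5 lower in ZNF503 shRNA cells (1% and 2.91%), with 0 and 0 in ZEB2 shRNA cells (0.237% and 0.225%). JAG1, a Notch ligand, was at 6.09 ± 0.342 CPM in NKX2-5 shRNA and 11.9 ± 4.55 in ZNF503 shRNA cells against 318 ± 93.2 in WT cells (-5.71 and -4.76, edgeR adjusted p = 1.11e-08 and 5.28e-08). NRP2, a VEGF co-receptor, was at 22.8 ± 5.24 and 22.8 ± 3.62 CPM against 252 ± 47.5, and S1PR1, the receptor of a blood lipid, at 1.92 ± 0.507 and 2.33 ± 0.424 against 24.2 ± 2.45. PROX1, the regulator of lymphatic endothelium that CMs and liver cells also make, was at 4.84 ± 0.185 CPM in NKX2-5 shRNA cells against 57.0 ± 6.77 (-3.56, SE 0.18, edgeR adjusted p = 1.92e-08). ANGPT2, another ligand of TEK, was at 0.696 ± 0.239 in ZNF503 shRNA cells against 8.35 ± 0.818 (-3.61, SE 0.36, edgeR adjusted p = 5.67e-06). At 5% FDR with no fold limit 8 of the 38 were higher and 18 lower in NKX2-5 shRNA (24.5% and 24.7%), 6 and 5 in ZEB2 shRNA (5.67% and 5.33%) and 12 and 18 in ZNF503 shRNA cells (27.2% and 28.5%). At day 10 4 were higher and 1 lower in NKX2-5 shRNA (4.46% and 2.85%) and 2 and 0 in ZEB2 shRNA cells (0.976% and 0.482%). At 5% FDR 18 were higher and 5 lower in NKX2-5 shRNA (23.3% and 20.6%) and 14 and 3 in ZEB2 shRNA cells (10.5% and 7.68%). CD34, a surface protein of endothelium and blood progenitors, was at 22.8 ± 1.26 CPM in NKX2-5 shRNA and 8.52 ± 1.70 in ZEB2 shRNA cells against 0.555 ± 0.128 in WT cells (5.41 and 3.97, SE 0.38 and 0.37, edgeR adjusted p = 0.000192 and 0.00217). EPAS1, a hypoxia factor, was at 374 ± 259 and 199 ± 34.7 CPM against 17.0 ± 3.51 (4.46 and 3.53, edgeR adjusted p = 0.000963 and 0.0056). TAL1, a regulator of blood and endothelial progenitors, was at 36.0 ± 7.96 CPM in NKX2-5 shRNA cells against 1.88 ± 0.837 (4.21, SE 0.38, edgeR adjusted p = 0.000395), while S1PR1 was at 4.26 ± 2.99 against 48.9 ± 6.00 (-3.52, SE 0.46, edgeR adjusted p = 0.00137).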

How the data were processed

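RNA sequencing libraries of H1 ESC lines were used as a table of raw read counts per RefSeq transcript, which the authors made with Tophat 2.0.14, Bowtie2 2.2.1.0, SAMtools 0.1.19.0 and RSeQC 2.6.1, according to the submitters' processing notes, on GRCh37. The deposited counts were not normalized, and the use of strand in counting is not given in the sources used here. Of 41627 transcript accessions 40281 were matched to symbols, and the row with the largest total stood for each of 23185 symbols. At day 10 the 4 columns of replicates 1 and 2 of WT and ZEB2 shRNA were left out, because their values were not in the order of the transcripts. Library totals ran from 9189588 to 90798116, and limits of 3 counts cover counting error only.

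Each comparison was fitted on all genes that passed edgeR's filter on low counts, with TMM factors and the quasi-likelihood test (edgeR 4.0.16, limma 3.58.1, R 4.3.3), and p-values were adjusted by Benjamini-Hochberg over all genes tested. Libraries of 1 day shared a fit, WT libraries of all days shared another, and the change from day 6 to day 10 was an interaction term. Thresholds followed the study's methods (2-fold and 10% FDR at day 0, 4-fold and 10% at day 2, 8-fold and 1% at days 6 and 10), with 5% FDR as a second rule. All members are named, with CPM per library for those past the study's threshold in any comparison of an shRNA line with WT cells and others the results turn on, and log2 fold changes for those at 5% FDR or to say that they were not. Up to 4 pathway genes per comparison are named, by the size of the log2 fold change. The members and lists were chosen with earlier results of these data known. CPM values are per library after TMM scaling, and log2 fold changes are from the fit with a prior count of 0.125. SE values were worked back from the log2 fold change and the F statistic of the test, and are approximate. A fold against a group with at most 3 counts per library is a lower bound. Alternatives were DESeq2 (1.42.0), edgeR's exact test, other size factors, no filter, 1 fit of all libraries, the mean of a gene's transcript rows, a replicate block and leaving out each library. The scripts were tested on simulated data. Promoter sequences are from RefSeq (GRCh38.p14), and coordinates of genes are GRCh37.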

Additional observations from a re-analysis of the deposited data

Results flagged for a closer look

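The following differences in change from day 6 to day 10 between an shRNA line and WT cells passed the interaction test of edgeR at 8-fold and 1% FDR, with both lines measured in 2 libraries at each day. In NKX2-5 shRNA cells, junction and adhesion genes differed on the log2 scale by 5.02 (PECAM1), 3.82 (CDH5), 4.85 (CLDN5), 4.56 (ICAM2) and 3.97 (GJA4). The surface glycoproteins differed by 5.31 (EMCN), 4.94 (CLEC14A) and 4.88 (ECSCR), the transcription factors by 5.73 (ERG), 3.60 (FLI1) and 3.61 (SOX7), the receptors by 5.38 (TIE1), 3.23 (TEK) and 3.09 (FLT1), and the secreted proteins by 3.49 (MMRN2) and 3.41 (VWF). APLN differed by -8.35, a fitted value that rests on WT cells with at most 1 library above 0 at day 6 and is not a bound. In ZEB2 shRNA cells SOX7 differed by 4.17 and TIE1 by 3.81. The libraries of both shRNA lines are set against the same 4 WT libraries, so the lines are not independent of each other.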

How the results depend on the processing

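Counts of members that passed the study's threshold ("strict") or 5% FDR were recomputed under each alternative, and those not given here stayed within 1.5 times the value in the report. With edgeR's exact test the strict count became 2 at day 0 in NKX2-5 shRNA and in ZEB2 shRNA cells (from 1 each), 2 at day 6 in NKX2-5 shRNA cells (from 1), 4 at day 10 in ZEB2 shRNA cells (from 2) and 2 between NKX2-5 shRNA and ZEB2 shRNA cells at day 10 (from 0), and the count at 5% FDR became 3 in ZEB2 shRNA cells at day 0 (from 1) and, between these 2 lines, 12 at day 6 (from 6) and 17 at day 10 (from 10). With DESeq2 the strict counts became 4 at day 10 in ZEB2 shRNA cells, 6 for its change from day 6 to day 10 (from 2) and 2 between the lines at day 10, and those at 5% FDR became 2 in ZEB2 shRNA cells at day 0 and at day 2 (from 1 each), 15 for its change (from 8) and 18 between the lines at day 10. With no filter on low counts the counts at 5% FDR in ZEB2 shRNA cells were 2 at day 0 and 2 at day 2, that between the lines at day 6 was 10, and the strict count at day 10 was 2. With no normalization factors the last was 1.

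With 1 fit of all libraries the strict counts became 2, 0 and 1 at day 0 in NKX2-5 shRNA, ZEB2 shRNA and ZNF503 shRNA cells (from 1, 1 and 2), 2 at day 6 in NKX2-5 shRNA cells, 4 at day 10 in ZEB2 shRNA cells, 6 for its change from day 6 and 2 between the lines at day 10. At 5% FDR they became 1, 0 and 1 at day 0 (from 2, 1 and 2), 4 and 0 at day 2 in NKX2-5 shRNA and ZEB2 shRNA cells (from 7 and 1), 6 at day 6 in NKX2-5 shRNA cells (from 10), 17 at day 10 in ZEB2 shRNA cells (from 10), 18 for its change, 3 between NKX2-5 shRNA and ZNF503 shRNA cells at day 6 (from 6) and 20 between the lines at day 10. The causes were not tested.

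With 1 library left out at a time, strict counts ran from 1 to 2 (NKX2-5 shRNA), 0 to 1 (ZEB2 shRNA) and 1 to 2 (ZNF503 shRNA) at day 0, from 2 to 4 at day 2 in NKX2-5 shRNA cells, from 0 to 2 and 1 to 1 at day 6 in ZEB2 shRNA and ZNF503 shRNA cells, from 2 to 15 and 0 to 0 at day 10 in NKX2-5 shRNA and ZEB2 shRNA cells, from 11 to 16 for WT cells at day 6, from 7 to 18 and 0 to 2 for the changes from day 6 to day 10, and from 0 to 1 at day 6 and 0 to 3 at day 10 between NKX2-5 shRNA and ZEB2 shRNA cells. At 5% FDR they ran from 0 to 3, 0 to 1 and 1 to 1 at day 0, from 4 to 6 and 0 to 1 at day 2 in NKX2-5 shRNA and ZEB2 shRNA cells, from 2 to 5 at day 6 and 1 to 4 at day 10 in ZEB2 shRNA cells, from 6 to 8 for WT cells at day 2, from 2 to 8 for the change in ZEB2 shRNA cells, from 0 to 5 between NKX2-5 shRNA and ZNF503 shRNA cells at day 6, and from 3 to 5 and 1 to 19 between NKX2-5 shRNA and ZEB2 shRNA cells at days 6 and 10. The log2 fold change of ESM1 between WT days 10 and 0 was 0 without replicate 3 of WT cells at day 10, its only library with counts, and 5.66 without replicate 4.

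A replicate block gave 1 member at 5% FDR at day 0 in NKX2-5 shRNA and in ZNF503 shRNA cells, 2 at day 2 and a strict count of 4 at day 10 in ZEB2 shRNA cells, and moved no other count by over 1.5 times. Of 19 pairs of libraries with a shared number, 4 had deviations that correlated above 0.1 and 4 below -0.1, so the numbers were not taken as a pairing. With no normalization factors the median log2 difference of all genes moved by 0.18 at day 10 and for the change from day 6 in ZEB2 shRNA cells, by -0.13 at day 2 in NKX2-5 shRNA cells, by 0.13 in WT cells at day 2 and by -0.15 between NKX2-5 shRNA and ZEB2 shRNA cells at day 10. At day 10, 3 counts corresponded to up to 0.323 CPM, and differences of genes near that level were not detectable. With 2 libraries a group, calls near a threshold rest on single libraries.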
